A study of Mus musculus with 12 samples.

Results

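The alpha7 genotype effect was measured in the thoracic aorta of mice as the mean of 2 differences, libraries labelled KO minus wild-type (WT) libraries in room air and KO minus WT libraries under nicotine vapor. It uses 6 KO and 6 WT libraries, which are all 12 of the series, in a single fit, and particular weight is given to genes whose difference had the same direction in each exposure. The groups were KO mice in air (libraries 1, 2 and 7), KO mice under nicotine vapor (3, 4 and 5), WT mice in air (8, 9 and 10) and WT mice under nicotine vapor (6, 11 and 12). Every group carries the strain label C57BL/6J. Exposure began at 5 months of age and went on for 12 weeks, and the tissue was taken at 8 months. The whole vessel was used after removal of fat, so the RNA comes from all layers of the wall and from whatever adhered to it. The labels give neither the form of the knockout allele, nor littermate or colony, nor whether a library is a single mouse.

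The alpha7 nicotinic acetylcholine receptor is an ion channel built from copies of the Chrna7 protein, opened by acetylcholine or nicotine and permeable to calcium. It is known from neurons, and also from macrophages, endothelium and smooth muscle, where it is studied as a brake on inflammatory cytokine release. The mean over both exposures asks what differs by genotype with and without the vapor.

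Library totals were 10240031 to 12628323 counts, with 17995 to 19484 genes detected and 3.0 to 7.52% of counts from mitochondrial genes. The smooth muscle genes Acta2 and Myh11 were among the abundant transcripts in all 12 libraries, at 6891 to 12246 CPM (counts scaled to a common library size) in KO and 7630.3 to 13829 CPM in WT for Acta2. Chrna7 itself had 26, 18 and 28 counts in KO air and 25, 8 and 21 counts in KO nicotine, against 22, 35 and 37 counts in WT air and 9, 18 and 26 counts in WT nicotine. Its log2 fold change was -0.15 ± 0.33 (SE), so these counts do not check the genotype, since reads from exons that a deletion leaves in place are counted too. KO therefore means the libraries labelled KO throughout. In the titles, KO libraries are numbered 1 to 5 and 7, while 6 and 8 to 12 are WT. If these numbers follow an order of handling, that order and genotype cannot be told apart.

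No gene passed the threshold for the genotype effect, an adjusted p under 0.05 by edgeR's quasi-likelihood test over 14621 genes (0 genes, 0%). The lowest edgeR adjusted p was 0.0679, shared by Tnfaip6 and Rcan1, both lower in KO. The unadjusted p was under 0.05 in 1229 genes (8.41%), of which 625 were lower in KO (4.27%) and 604 higher (4.13%). By limma voom 0 genes passed as well, whereas DESeq2 passed 115 of 13761 genes, of which 88 were lower and 27 higher in KO. The higher ones included Apoc3 and Serpina1b of the hepatocyte list. That list summed to 4369 CPM in KO nicotine 3, against 97.3 to 729 CPM in the other KO libraries. Of those 115, 114 had the same sign in air and in nicotine, where 55.8% of all genes tested by edgeR did. They were picked by the mean of both differences, which favours a shared sign, so the 114 carry no test of a shared effect. Log2 fold changes had a median standard error of 0.16 for the genotype effect, 0.22 within each exposure and 0.31 for the difference between exposures. The p-values measure spread among libraries, which may in part be technical.

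Over both exposures 7019 genes were below 0 (48%) and 7602 above 0 (52%). The same direction in each exposure was seen for 8163 genes (55.8%), 3901 lower in both (26.7%) and 4262 higher in both (29.1%). A stricter group had the same sign and an unadjusted p under 0.05 in each exposure separately. It held 89 genes (0.609%), 67 of them lower in KO (0.458%) and 22 higher (0.15%). These 89 were picked by the values they are described with, and so carry no test of their own. The air and nicotine differences come from separate libraries, but they share the normalization and each gene's estimate of spread. An order of handling that went with genotype would be shared as well. The 89 genes are the ones described in most detail below, beside gene lists of known function.

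Genes singled out in 1 exposure could be read in the libraries of the other. In air 20 genes had an unadjusted p under 0.001, and under nicotine 16 of them had the same sign and 10 also an unadjusted p under 0.05, which is 50% where 5.51% of all tested genes met that mark. Those 10 were Rbp2, Net1, Klhdc8a, Gm26902, Chmp2b, WDR97, Rspo4, Abhd6, Ppp6c and Cbx8. In nicotine 47 genes had an unadjusted p under 0.001, and in air 33 of them had the same sign and 8 met the mark, 17% against 2.89% of all tested genes. The 8 were Tnfaip6, Filip1l, Irs2, Nedd9, Dnajb4, Arid5b, Bcl2l1 and Nfil3. Choosing by a small p favours genes with a low estimate of spread, which both exposures share. The share over all tested genes is therefore not a like-for-like background. Both counts also rest on few libraries. The 10 genes became 1 to 5 without any of KO air 1 or 2, KO nicotine 4 or 5, WT air 8, 9 or 10, or WT nicotine 6 or 11. The 8 became 2 to 4 without KO air 2 or 7, KO nicotine 4, WT air 10 or WT nicotine 12, and 17 and 15 without KO air 1 and KO nicotine 5. The group of 89 became 50 without KO air 2, 58 without KO air 7, 58 without KO nicotine 4 and 56 without WT nicotine 12.

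**Figure D1:**
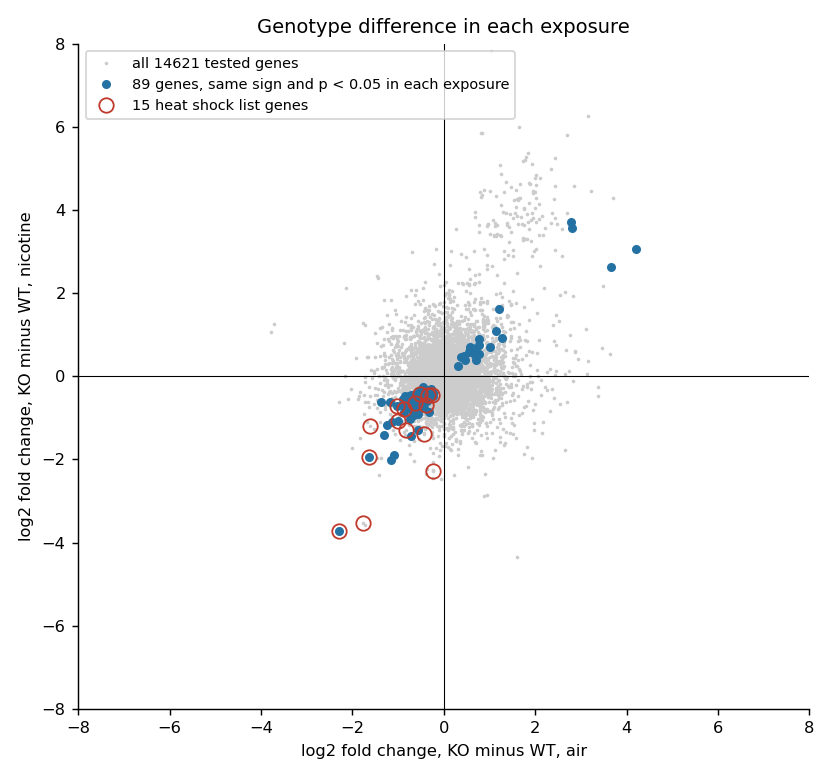
Log2 fold change, KO minus WT, in air (x axis) and in nicotine (y axis) for the 14621 tested genes (grey points). Blue points are the 89 genes with the same sign and an unadjusted p under 0.05 in each exposure, 67 at the lower left and 22 at the upper right, and red rings mark the 15 heat shock genes, all of which lie in the lower left quadrant.

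The 5 leading genes on the lower side were Tnfaip6, Rcan1, Nedd9, Net1 and Filip1l. Tnfaip6 encodes TSG-6, a secreted protein that binds hyaluronan and is induced by inflammatory cytokines. It stood at 2.81, 2.48 and 1.82 CPM in KO air and 3.85, 2.29 and 3.64 CPM in KO nicotine, against 5.83, 5.93 and 3.31 CPM in WT air and 12.6, 13.5 and 10.5 CPM in WT nicotine. Within each exposure every KO library was below every WT library, while KO nicotine 3 and 5 lay above WT air 10. The transcript was 2.81-fold lower in KO, a log2 fold change of -1.49 ± 0.21 (SE), with -1.08 ± 0.30 in air and -1.90 ± 0.30 in nicotine.

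Nedd9 encodes a scaffold of focal adhesions. Its level was 108, 74.9 and 97.6 CPM in KO air and 117, 107 and 115 CPM in KO nicotine, against 134, 129.6 and 151 CPM in WT air and 158, 178 and 197 CPM in WT nicotine. All 6 KO libraries were below all 6 WT libraries, and the difference was much alike in size in air (-0.56 ± 0.14) and nicotine (-0.65 ± 0.14), giving -0.61 ± 0.10 over both (edgeR adjusted p = 0.115). Net1, a guanine nucleotide exchange factor that activates RhoA, was at 326, 303 and 287 CPM in KO air, against 460.3, 486 and 622 CPM in WT air. Under nicotine it was at 481, 397 and 411 CPM in KO, against 606, 593 and 856 CPM in WT. Only KO nicotine 3, above WT air 8, crossed the line between the genotypes, and Net1 was 1.65-fold lower in KO (log2 -0.72 ± 0.12).

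Filip1l, related to a filamin-interacting protein, was also separated without overlap, at 448 to 598 CPM in KO and 627 to 1072 CPM in WT (log2 fold change -0.60 ± 0.11). The difference was -0.32 ± 0.15 in air and -0.87 ± 0.15 in nicotine, and Filip1l was the 1 gene of the 89 with an unadjusted p under 0.05 for the change in size between exposures (-0.54 ± 0.21). Rcan1, an inhibitor of the phosphatase calcineurin, had the other of the 2 lowest p-values, yet its difference sat in 1 exposure. It was at 30.8, 23.2 and 24.4 CPM in KO nicotine, against 55.3, 78.8 and 75.1 CPM in WT nicotine. In air it was at 29.1, 21.4 and 21.7 CPM in KO, against 30.5, 26.2 and 29.4 CPM in WT, where the groups overlapped. Rcan1 fell in KO under nicotine (-1.42 ± 0.17, edgeR adjusted p = 0.0191), the single call of that comparison (0.00684% of genes, with 1220 at an unadjusted p under 0.05, 8.34%), and was at -0.25 ± 0.17 in air. Without KO nicotine 4 or KO nicotine 5, 0 genes were called in that comparison. It is therefore not among the 89, and its genotype effect of -0.84 ± 0.12 is mostly the nicotine difference.

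On the higher side, 3 of the 5 leading genes encode metabolic enzymes. Acot11, a thioesterase that splits fatty acyl-CoA and is known from brown fat, was at 85.6, 135 and 112 CPM in KO air and 54.4, 73.7 and 82.1 CPM in KO nicotine, against 70.6, 65.2 and 58.9 CPM in WT air and 59.6, 45.5 and 40.2 CPM in WT nicotine. Within air the genotypes did not overlap, and within nicotine KO 3 lay inside the WT range. It was 1.57-fold higher in KO (log2 0.65 ± 0.14, edgeR adjusted p = 0.192). Abhd6, a lipase that breaks down the endocannabinoid 2-arachidonoylglycerol, was at 13.3 to 19.2 CPM in KO and 9.97 to 13.4 CPM in WT. The ranges met at KO nicotine 5 and WT nicotine 6 alone, and the log2 fold change was 0.54 ± 0.12.

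Mettl8, which encodes a methyltransferase acting on mitochondrial transfer RNA, was higher in every KO library than in every WT library, at 5.26 to 7.76 CPM in KO and 2.39 to 4.7 CPM in WT (1.80-fold higher, log2 0.85 ± 0.19). Dbt, a subunit of the enzyme complex that breaks down branched-chain amino acids, was at 47.8 to 67.2 CPM in KO and 37.6 to 51.6 CPM in WT. Its difference of 0.42 ± 0.09 was larger in nicotine (0.62 ± 0.13) than in air (0.23 ± 0.13), though the change between exposures had an unadjusted p of 0.0542. Rspo4, a secreted enhancer of Wnt signalling, was scarce, at 1.19, 2.14 and 1.9 CPM in KO air and 0, 0.477 and 0.486 CPM in KO nicotine, against 0.174, 0.0824 and 0 CPM in WT air and 0, 0.0838 and 0 CPM in WT nicotine. With most WT libraries and KO nicotine 3 at 0 or close to it, no fold is given for Rspo4, and it was the KO air libraries that stood above the rest.

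**Figure D2:**
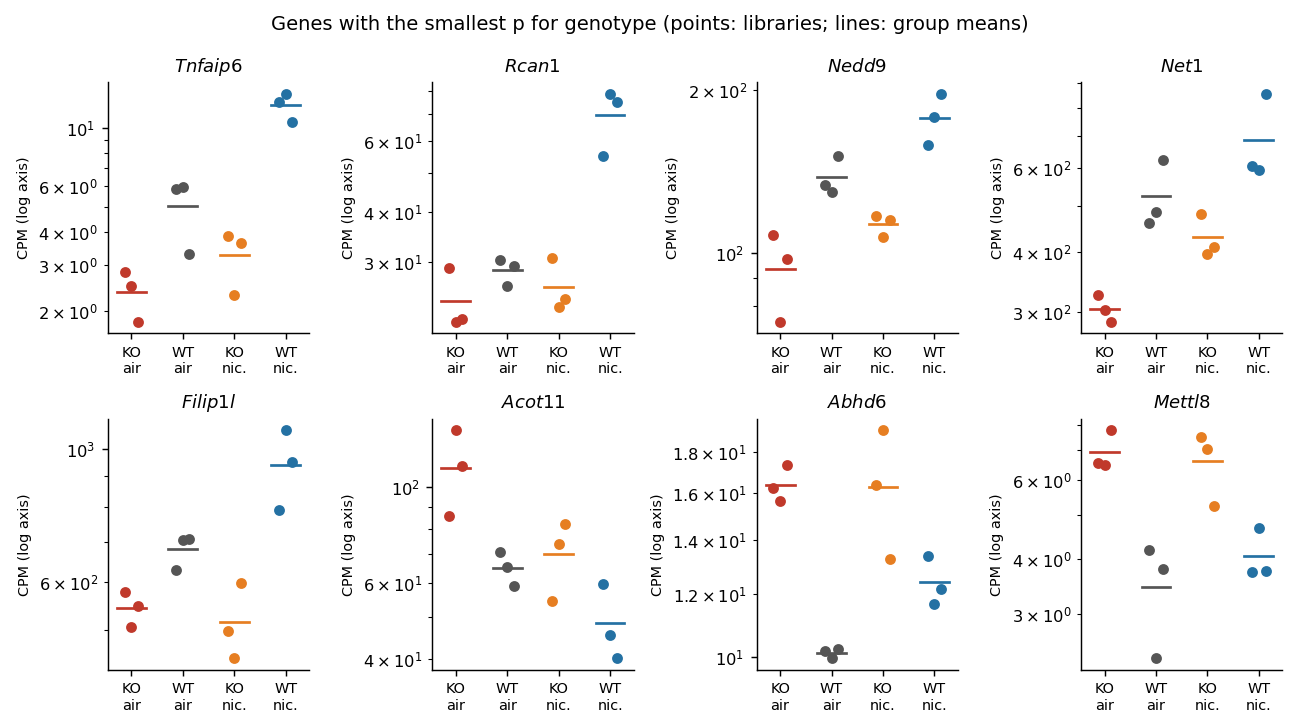
Level in CPM (log axis) of 8 genes, 1 point per library and a line at each group's mean, in the order KO air, WT air, KO nicotine, WT nicotine. They are the 5 leading genes of the lower side, and Acot11, Abhd6 and Mettl8 of the higher side. Genes lower in KO that are not shown, such as Chd5 and Adamts1, had a smaller unadjusted p for genotype than these higher genes. Nedd9, Filip1l and Mettl8 separate all 6 KO from all 6 WT libraries, whereas the Rcan1 difference is seen under nicotine, where KO libraries are at 23.2 to 30.8 CPM and WT libraries at 55.3 to 78.8 CPM.

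Heat shock genes stood lower in KO than in WT in each exposure. Heat shock proteins are chaperones that keep other proteins folded. Their genes are switched on within minutes by heat, oxidants and other stress that damages proteins, when the heat shock factor Hsf1 binds short inverted repeats, called heat shock elements, in their promoters. The list was chosen with earlier results of these data known, so its counts describe the libraries and carry no test. It held 15 genes, all tested, and all 15 were below 0 in air and in nicotine alike, where 26.7% of all tested genes were. At an unadjusted p under 0.05, 13 of 15 were lower in KO against 4.27% of all genes, and 5 of 15 met that mark in each exposure against 0.458%. The median log2 fold change of the list was -0.91 over both exposures, -0.83 in air and -1.08 in nicotine, where the median of all genes was 0.01. No member passed over all genes by edgeR, the lowest adjusted p being 0.186 for Bag3. DESeq2 passed 10 of the 15, where it passed 115 of 13761 genes in all.

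Promoter stretches with a heat shock element, written GAANNTTC and set in capitals, are shown for 4 of the members that carry it. They come from RefSeq promoters (build GRCm38.p6, letters in the direction of transcription). The element was searched on both strands, being its own reverse complement, in the window from 250 bases before to 50 bases after each start site.
Hspa1a (chr17:34972228-34972285, minus strand): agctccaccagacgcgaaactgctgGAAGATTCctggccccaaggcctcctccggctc
Hspa1b (chr17:34959310-34959367, minus strand): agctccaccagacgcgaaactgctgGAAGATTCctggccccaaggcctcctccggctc
Hspb1 (chr5:135887777-135887854, plus strand): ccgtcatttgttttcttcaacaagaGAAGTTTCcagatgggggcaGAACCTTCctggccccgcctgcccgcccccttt
Dnaja1 (chr4:40722319-40722376, plus strand): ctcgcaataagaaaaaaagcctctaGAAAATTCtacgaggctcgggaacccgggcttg
It was found in 9 of the 11 heat shock genes matched to a promoter (81.8%), against 9.04% of 27025 genes. Hspd1 and Hspe1, whose unadjusted p for genotype was above 0.05, were among the 9. The stretches of Hspa1a and Hspa1b carry the same letters, and those of Hspd1 and Hspe1 are the same bases read on opposite strands. The 9 are therefore not all separate promoters. A match is a description of the sequence and no evidence of binding in these samples.

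The inducible Hsp70 genes had the widest differences of the list. Hspa1b was at 105, 30.7 and 40.5 CPM in KO air, against 703, 86.2 and 75.0 CPM in WT air. Under nicotine it was at 70.9, 85.7 and 41.4 CPM in KO, against 468, 1378 and 776 CPM in WT. WT air 8 and the 3 WT nicotine libraries were the high ones, while WT air 9 and 10 lay within the KO range. The log2 fold change was -3.01 ± 0.67, or 8.06-fold lower. Its neighbour Hspa1a, at 10.3 to 47.8 CPM in KO and 29.5 to 446 CPM in WT, gave -2.65 ± 0.61. The 2 genes are near-identical, so how reads were split between them is uncertain and they are best read as 1 signal.

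Hsph1, which encodes the nucleotide exchange factor Hsp110 that serves Hsp70, was at 192, 142 and 127 CPM in KO air and 253, 184 and 171 CPM in KO nicotine, against 805, 435 and 188 CPM in WT air and 363, 883 and 1105 CPM in WT nicotine. WT air 10 alone fell within the KO range, and Hsph1 was 3.46-fold lower in KO (-1.79 ± 0.37). The constitutive Hsp70 gene Hspa8 was at 1199, 1069 and 1088 CPM in KO air and 2578, 1314 and 1175 CPM in KO nicotine, against 2716, 2179.8 and 1933 CPM in WT air and 1777, 2700.4 and 3842 CPM in WT nicotine. Here KO nicotine 3 stood with the WT libraries and the other 5 KO libraries stood below all WT libraries, giving -0.87 ± 0.22. Of the Hsp90 genes, Hsp90aa1, the inducible form, was at 349 to 701 CPM in KO and 554 to 1483 CPM in WT (-1.05 ± 0.25). Hsp90ab1, the constitutive form, was at 1516 to 2377 CPM in KO and 2023 to 3698 CPM in WT (-0.63 ± 0.16). In both Hsp90 genes the KO range reached into the WT range through KO nicotine 3 alone.

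The small heat shock genes were lower in KO too. Hspb1 was at 108 to 414 CPM in KO and 238 to 693 CPM in WT (-1.40 ± 0.38), with KO nicotine 3 as the 1 high KO library. Hspb8, a partner of Bag3 in the removal of damaged muscle proteins, separated the genotypes without overlap, at 84.7 to 100.2 CPM in KO and 102 to 187 CPM in WT (-0.53 ± 0.13), the 1 heat shock gene to do so (39 genes, 0.267%, were lower in KO without overlap). Bag3 itself was at -0.43 ± 0.25 in air and -1.38 ± 0.25 in nicotine, and Dnajb1, a co-chaperone of Hsp70, at -0.25 ± 0.47 and -2.29 ± 0.48. These were the 2 list members with an unadjusted p under 0.05 for a change between exposures, both with the wider difference under nicotine. The mitochondrial chaperones Hspd1 (-0.40 ± 0.25) and Hspe1 (-0.36 ± 0.27) were the 2 members short of an unadjusted p of 0.05. Summed over the list, KO libraries held 4415, 4154 and 3868 CPM in air and 7309, 4514 and 4079.6 CPM in nicotine, against 9999, 7229.7 and 5868 CPM in WT air and 6555, 11573 and 13496 CPM in WT nicotine. The sums overlapped only through KO nicotine 3, and the highest WT libraries were nicotine 12, nicotine 11 and air 8.

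**Figure D3:**
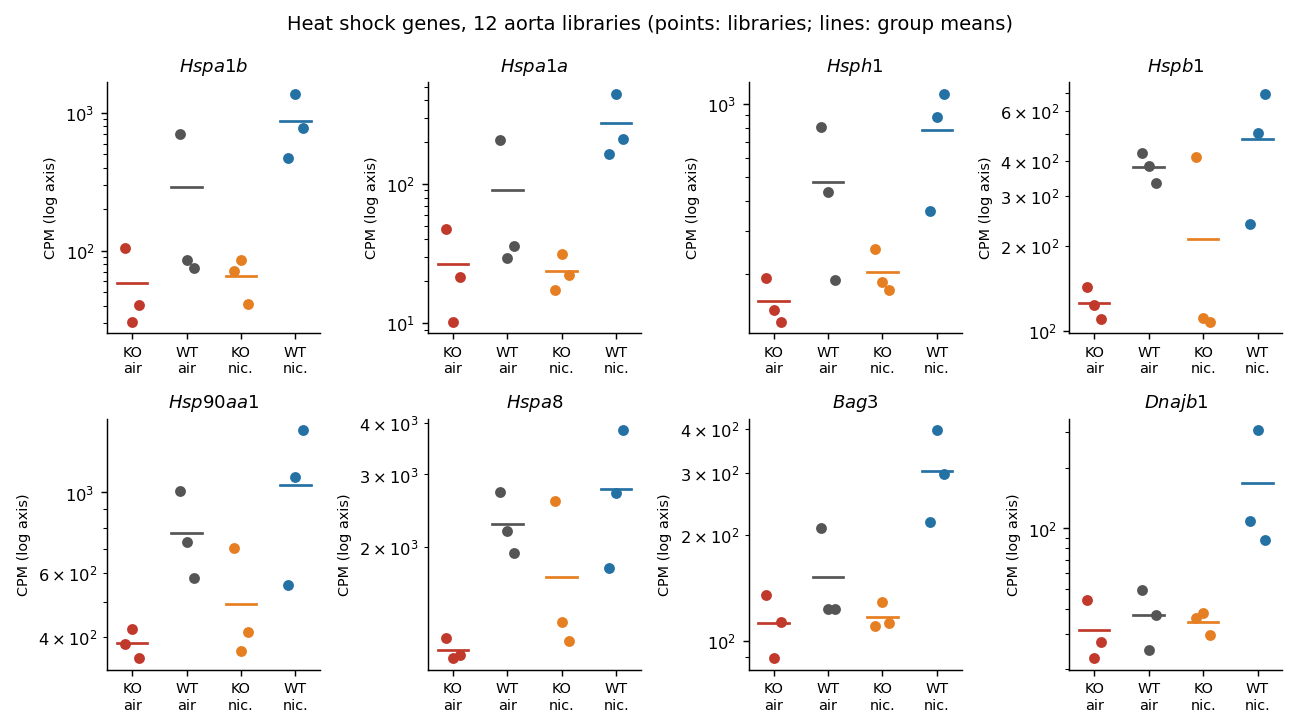
Level in CPM (log axis) of 8 heat shock genes in each of the 12 libraries, with a line at each group's mean, in the order KO air, WT air, KO nicotine, WT nicotine. KO libraries are low in each panel, with KO nicotine 3 raised in Hspb1, Hsp90aa1 and Hspa8, and for Dnajb1 the air groups overlap while WT nicotine libraries reach 307 CPM.

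Chaperone partners outside that list were compared next, with lists drawn up after these values had been seen. Of 17 partners of Hsp70 and Hsp90, 14 were below 0, where 48% of all genes were, and 9 were lower at an unadjusted p under 0.05, against 4.27%, with a median of -0.25. The 9 included the J-domain gene Dnajb4 (-1.08 ± 0.21), Stip1 (-0.87 ± 0.22), which bridges Hsp70 and Hsp90, and the Hsp90 activator Ahsa1 (-0.64 ± 0.19). Dnajb4 was at 237, 104 and 148 CPM in KO air and 210.0, 235 and 265 CPM in KO nicotine, against 358, 175 and 267 CPM in WT air and 562, 759 and 613 CPM in WT nicotine. Stip1 differed by the same amount in air (-0.87 ± 0.31) and in nicotine (-0.86 ± 0.31). The summed level of the 17 genes separated the genotypes, at 1715 to 1966 CPM in KO and 2047 to 3079 CPM in WT. KO nicotine 3, at 1966 CPM, was the highest KO library and WT air 10, at 2047 CPM, the lowest WT library.

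Subunits of the CCT chaperonin, the ring that folds actin and tubulin, were below 0 in 7 of 7, in each exposure, with a median of -0.21 and 4 lower at an unadjusted p under 0.05, against 4.27% of all genes. Cct7 was at 114 to 137 CPM in KO and 130.2 to 180.2 CPM in WT, and differed by -0.34 ± 0.13 in air and -0.33 ± 0.13 in nicotine. In contrast, the heat shock factors and their regulator had 0 of 4 members at an unadjusted p under 0.05, with Hsf1 at 22.7 to 31.9 CPM in KO and 22.2 to 37.7 CPM in WT (-0.14 ± 0.13). Proteasome subunits had 0 of 14 members there and a median of 0.02. The edgeR adjusted p was above 0.05 in all of these genes, so the values describe the libraries.

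Genes of the unfolded protein response, which adjusts the folding capacity of the endoplasmic reticulum, were lower by a smaller amount. Of 18 list members 17 were below 0, and 15 were so in each exposure, where 48% and 26.7% of all genes were. The list median was -0.28 over both, -0.28 in air and -0.22 in nicotine. At an unadjusted p under 0.05, 7 were lower in KO, against 4.27% of all genes, and none met that mark in each exposure. The 7 became 3 without KO nicotine 5, WT air 8 or WT nicotine 12, and 4 without KO air 1, KO air 2 or KO nicotine 4. Xbp1, the transcription factor of the Ire1 branch, was at 72.2 to 104 CPM in KO and 89.6 to 129.5 CPM in WT (-0.39 ± 0.11). The chaperone gene Hspa5, which encodes BiP, was at 486, 457 and 438 CPM in KO air, against 819, 861 and 589 CPM in WT air, and the groups did not overlap. Under nicotine it was at 878, 434 and 741 CPM in KO, against 553, 724 and 1148 CPM in WT, and they did. Its log2 fold change was -0.72 ± 0.28 in air and -0.24 ± 0.28 in nicotine. The other 5 were Dnajc3 (-0.31), Dnajb9 (-0.35), Herpud1 (-0.35), the secreted factor Manf (-0.56) and Atf4 (-0.35), a transcription factor of the integrated stress response.

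Promoters of this list carry a different motif, the endoplasmic reticulum stress element (CCAAT and CCACG with 9 bases between them), shown in capitals for 2 of the lower members from the same RefSeq windows.
Hspa5 (chr2:34772000-34772068, plus strand): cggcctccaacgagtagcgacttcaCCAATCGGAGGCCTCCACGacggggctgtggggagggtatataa
Dnajc3 (chr14:118937802-118937870, plus strand): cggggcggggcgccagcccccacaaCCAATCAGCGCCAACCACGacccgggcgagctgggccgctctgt
It was found on either strand in 7 of 16 matched list members (43.8%), against 0.137% of 27025 genes, while 0 of these 16 held the heat shock element. The median difference of the heat shock list, -0.91, was wider than the -0.28 of this list. Without WT nicotine 12 the median of the unfolded protein response list was -0.16.

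**Figure D4:**
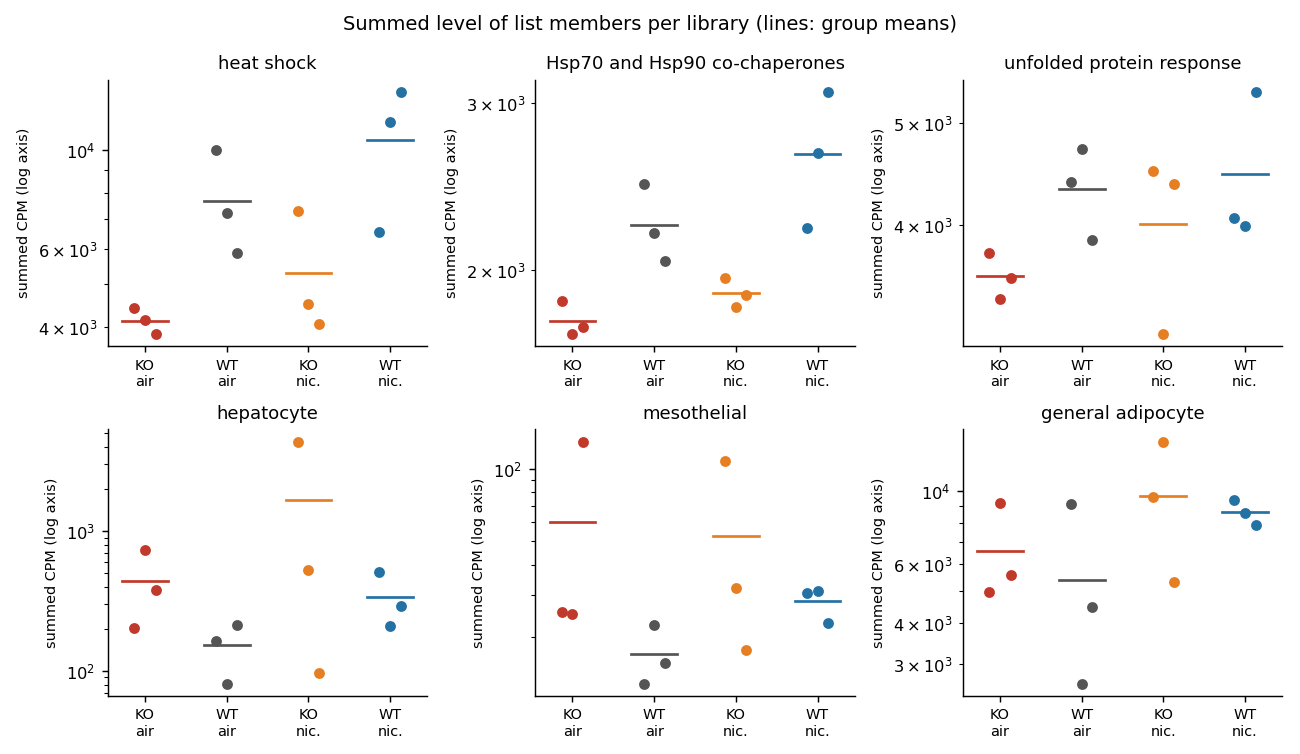
Summed level in CPM (log axis) of 6 gene lists in each library, 1 point per library with a line at each group's mean, in the order KO air, WT air, KO nicotine, WT nicotine. The Hsp70 and Hsp90 co-chaperone sums of KO (1715 to 1966 CPM) and WT (2047 to 3079 CPM) do not meet, and KO nicotine 3 is the high KO point for the heat shock and hepatocyte lists.

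Glucocorticoid-responsive genes were below 0 in 14 of 14, and 11 were so in each exposure, where 48% and 26.7% of all genes were. The list median was -0.46, -0.42 in air and -0.52 in nicotine. Of the 14 genes, 7 were lower at an unadjusted p under 0.05, against 4.27% of all genes. The 7 became 3 without KO air 2, and 4 without WT air 10 or with the immediate early score in the model. Tsc22d3, which encodes the leucine zipper GILZ, was at 40.2, 47.4 and 48.5 CPM in KO air and 109.6, 93.2 and 56.7 CPM in KO nicotine, against 70.5, 62.4 and 78.6 CPM in WT air and 106, 110.3 and 139.7 CPM in WT nicotine. Air separated the genotypes, and under nicotine KO 3 lay within the WT range, for differences of -0.64 ± 0.20 and -0.46 ± 0.20. Nfkbia, the inhibitor of NF-kappaB, was at 45.2 to 59.6 CPM in KO and 52.7 to 95.4 CPM in WT (-0.44 ± 0.10). Errfi1, a feedback inhibitor of the EGF receptor, differed in 1 exposure, with -0.09 ± 0.25 in air and -1.78 ± 0.26 in nicotine. The other 4 lower members were Per1 (-0.37), Ddit4 (-0.56), Klf9 (-0.28) and Sgk1 (-0.45). The summed level was 1112 to 2224 CPM in KO and 1144 to 2597 CPM in WT, with wide overlap.

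Immediate early genes, induced within minutes of many stimuli, were not shared between exposures as a list, with a median of 0.11 in air and -0.74 in nicotine. Within it, 2 of 25 members were lower at an unadjusted p under 0.05 in each exposure, against 0.458% of all genes. Nr4a3, an orphan nuclear receptor, was at 57.8, 33.4 and 32.7 CPM in KO air and 146, 58.6 and 58.6 CPM in KO nicotine, against 149, 66.2 and 93.8 CPM in WT air and 158, 225 and 316 CPM in WT nicotine. Within each exposure the genotypes did not overlap, KO nicotine 3 again being the highest KO library (-1.36 ± 0.32). Ctgf, a matricellular protein of the vessel wall, was at 943 to 2188 CPM in KO and 1662 to 3805 CPM in WT, with -0.57 ± 0.25 in air and -0.92 ± 0.25 in nicotine. The summed level of immediate early genes was 3354 to 7143 CPM in KO and 3850.1 to 10782 CPM in WT. With the immediate early score in the model, 14 of 15 heat shock genes were lower at an unadjusted p under 0.05 and their median was -0.95.

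Beyond those lists, the 67 genes lower in each exposure, named here after their values were seen, included several of the extracellular matrix. Adamts1, a protease that cleaves versican, was at 213 to 391 CPM in KO and 279 to 823 CPM in WT (-0.75 ± 0.15), with -0.67 ± 0.21 in air and -0.84 ± 0.21 in nicotine. P4ha1, a subunit of the prolyl hydroxylase that collagen needs to fold, was at 98.5, 77.6 and 90.4 CPM in KO air and 169.9, 90.4 and 97.1 CPM in KO nicotine, against 257, 213 and 118 CPM in WT air and 142, 252 and 376 CPM in WT nicotine. In this gene too KO nicotine 3 was the highest KO library, above WT air 10 and WT nicotine 6, and the difference was -1.12 ± 0.28. Mfap5, a microfibril glycoprotein, was at 63.6 to 96.0 CPM in KO and 86.6 to 111 CPM in WT (-0.40 ± 0.10).

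The matrix lists as a whole differed little. Of 15 elastic fibre genes 14 were below 0 with a median of -0.18, and of 21 collagen genes 18 were below 0 with a median of -0.10. With single libraries left out these medians ran from -0.26 to -0.12 and from -0.22 to -0.04. In each list 2 genes were lower at an unadjusted p under 0.05, against 4.27% of all genes, of which Mfap5 alone met that mark in each exposure. Eln, the elastin gene, was at 415 to 1141 CPM in KO and 614 to 1278 CPM in WT (-0.29 ± 0.22), a difference within the spread of the libraries. In bulk tissue, fewer cells of a type and less RNA per cell cannot be told apart.

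Of the 67, 3 more with a role at adhesions or in the actin cytoskeleton are given, picked after their values were seen. The first was Bcar3 (-0.45 ± 0.11), whose protein binds the adhesion scaffolds of the Nedd9 family, at 59.1 to 76.0 CPM in KO and 75.4 to 108 CPM in WT. Xirp1, an actin-binding protein of striated muscle, was at 81.3 to 194 CPM in KO and 164 to 356 CPM in WT (-0.79 ± 0.18). Myl12a, a regulatory light chain of non-muscle myosin, separated all libraries, at 149 to 165 CPM in KO and 177 to 219.8 CPM in WT, a 1.23-fold difference (-0.30 ± 0.08). Of the 38 genes of the actin cytoskeleton list, Myl12a alone was among the 67. In that list 34 were below 0, 19 of them in each exposure, with a median of -0.09 (-0.17 to -0.05 with single libraries left out), and 5 were lower at an unadjusted p under 0.05, against 4.27% of all genes. Their names are Myl12a, Cnn3 (-0.41), Zyx (-0.28), Srf (-0.25) and Actg1 (-0.26). The list's differences are small against the standard errors, and its summed level was 30815 to 44216 CPM in KO and 35259 to 51973 CPM in WT.

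Contractile smooth muscle genes were below 0 in 14 of 17, and 11 were so in each exposure, where 48% and 26.7% of all genes were. Their median was -0.08. Of the 17, Myocd alone was lower at an unadjusted p under 0.05 in each exposure, against 0.458% of all genes. Myocd encodes myocardin, the coactivator of serum response factor that drives smooth muscle genes. It was at 332, 218 and 219 CPM in KO air and 252, 236 and 374 CPM in KO nicotine, against 470.1, 348 and 360.0 CPM in WT air and 371, 365 and 686 CPM in WT nicotine (-0.67 ± 0.19). Within air the genotypes did not overlap, and within nicotine KO 5 lay above WT 6 and 11. The targets Acta2 (-0.08 ± 0.17) and Myh11 (-0.11 ± 0.17) did not follow, their differences being within their standard errors. Acta2 was at 0.14 with 1 surrogate variable in the model, so its sign is not settled.

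Several of the 67 act in the nucleus or in signalling. Chd5, a chromatin remodeller, was at 11.3 to 22.1 CPM in KO and 25.4 to 34.7 CPM in WT, and the Polycomb subunit gene Cbx8 at 19.2 to 32.7 CPM in KO and 35.8 to 46.8 CPM in WT. Neither had a KO library above a WT library, and the differences were -0.78 ± 0.15 and -0.58 ± 0.12. Nfil3, a transcriptional repressor, was at 8.93, 4.19 and 4.29 CPM in KO air and 10.2, 11.8 and 10.8 CPM in KO nicotine, against 24.4, 6.18 and 8.23 CPM in WT air and 45.8, 46.0 and 40.9 CPM in WT nicotine. The nicotine groups lay far apart and the air groups overlapped through KO 1, giving -1.58 ± 0.32.

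Irs2, the insulin receptor substrate, was at 106, 75.3 and 112 CPM in KO air, against 101, 124 and 212 CPM in WT air, with overlap. In nicotine it was at 137, 128 and 123 CPM in KO, against 339, 353 and 249 CPM in WT, with none, so most of its -0.93 ± 0.17 came from nicotine. The phosphatase subunit gene Ppp6c, at 85.9 to 115 CPM in KO and 129.8 to 155 CPM in WT, and Chmp2b, an ESCRT subunit for membrane scission, at 62.7 to 77.7 CPM in KO and 86.3 to 97.0 CPM in WT, differed by less but with tight libraries. Their log2 fold changes were -0.40 ± 0.08 and -0.35 ± 0.07, with no overlap in either. Klhdc8a, at 2.38 to 4.49 CPM in KO and 4.82 to 7.58 CPM in WT, was a low-level gene with the wider difference in air (-1.19 ± 0.26) than in nicotine (-0.62 ± 0.25). Of the 67, 20 had no overlap between the genotypes, and of the 22 higher genes 9 had none (23 genes, 0.157%, were higher in KO without overlap). These shares follow from how the 89 were picked and are given as a description.

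The 22 genes higher in each exposure were fewer and mostly of low level. Nipsnap1, a mitochondrial protein, was at 8.26 to 12.1 CPM in KO and 3.67 to 7.75 CPM in WT and differed equally in air (0.77 ± 0.25) and nicotine (0.76 ± 0.26). Upb1, an enzyme of pyrimidine breakdown, was at 5.19 to 10.8 CPM in KO and 2.85 to 5.14 CPM in WT, without overlap (0.84 ± 0.23). Its highest library was KO nicotine 3, as it was for Hrsp12, a deaminase of reactive intermediates, at 8.92 to 20.3 CPM in KO and 7.1 to 9.81 CPM in WT. Pcyt2, an enzyme of phosphatidylethanolamine synthesis, was at 15.6 to 29.2 CPM in KO and 9.94 to 17.4 CPM in WT (0.57 ± 0.18). Pcyox1, which degrades prenylated cysteine, had the smallest difference of the 22, 0.28 ± 0.08, with 125 to 163 CPM in KO and 112 to 121 CPM in WT. The widest differences among the 22 belonged to 4 scarce genes, Rspo4, Dnajc22, Apoc3 and Krt8.

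Apoc3 and Krt8 are markers of liver and of mesothelium, and both lists were higher in KO as a whole. All 15 hepatocyte markers were above 0, 13 of them at an unadjusted p under 0.05 against 4.13% of all genes, with a median of 2.69, 1.75 in air and 3.61 in nicotine. Alb, the albumin gene, was at 64.9, 327 and 154 CPM in KO air and 1815, 213 and 35.5 CPM in KO nicotine, against 49.2, 16.9 and 87.3 CPM in WT air and 30.7, 14.3 and 92.4 CPM in WT nicotine. KO nicotine 3 was far above the rest, and KO air 1 and KO nicotine 5 lay within the WT range. Summed, the list was at 204, 729 and 378 CPM in KO air and 4369, 528 and 97.3 CPM in KO nicotine, against 163, 81.2 and 214 CPM in WT air and 509.7, 209 and 292 CPM in WT nicotine. No hepatocyte marker was at 0 in all libraries. Apoc3 was at 0.68, 2.39 and 1.24 CPM in KO air and 14.6, 2.86 and 0.405 CPM in KO nicotine, against 0.348, 0 and 0.242 CPM in WT air and 0.197, 0.419 and 0.817 CPM in WT nicotine, so it is carried by a few reads in most libraries.

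Mesothelial markers, from the lining of the chest cavity, were above 0 in 9 of 9 in each exposure, where 29.1% of all genes were. For the genotype effect 5 were at an unadjusted p under 0.05, against 4.13% of all genes. Their list median was 1.67, 2.82 in air and 0.78 in nicotine. The summed level of the mesothelial markers was 25.3, 24.95 and 129.8 CPM in KO air and 108, 31.9 and 17.7 CPM in KO nicotine. In WT it was 12.8, 22.5 and 15.6 CPM in air and 30.4, 31.2 and 22.9 CPM in nicotine. KO air 7 and KO nicotine 3 were the high libraries, and the other 4 KO libraries lay between 17.7 and 31.9 CPM, close to the WT range. Without KO air 7 the median was 0.89, and without KO nicotine 3 the hepatocyte median was 1.503. The counts moved as well. Without KO nicotine 3, 7 hepatocyte and 2 mesothelial markers were at an unadjusted p under 0.05, and without KO air 7, 1 mesothelial marker was. The hepatocyte count was 8 without KO air 2, WT air 8, WT air 9, WT nicotine 6 or WT nicotine 11, and limma voom gave 2 hepatocyte and 0 mesothelial markers. Krt8 was at 0.647 to 19.8 CPM in KO and 0 to 1.63 CPM in WT. Without KO air 7 and KO nicotine 3, an alternative added after the data were seen, the mesothelial median was 0.24 with 1 marker at that mark and the hepatocyte median 1.55 with 3, while the heat shock median was -1.08 with 13 of 15 genes lower at it. With the hepatocyte score as a covariate, 14 of 15 heat shock genes were lower at that mark.

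Markers of fat and of energy metabolism lay mostly above 0, where 52% of all genes were. The general adipocyte, oxidative phosphorylation and fatty acid oxidation lists had no member at an unadjusted p under 0.05. Of 17 general adipocyte markers 14 were above 0 (median 0.21), their sum being 4967 to 14057 CPM in KO and 2626 to 9404 CPM in WT. Of 41 nuclear genes of oxidative phosphorylation 39 were above 0, 37 of them in each exposure (median 0.20). Of 17 fatty acid oxidation genes 16 were above 0 (median 0.31). Summed levels were highest in KO nicotine 4 and next in KO air 2 for both metabolic lists, and KO nicotine 4 also had the highest adipocyte sum. These medians rest on single libraries. Without KO nicotine 4 they were -0.03 for adipocyte, 0.04 for oxidative phosphorylation and 0.13 for fatty acid oxidation genes. Without WT air 8 they were 0.53, 0.41 and 0.61. Without KO air 2 they were 0.02, 0.05 and 0.13, and without WT air 9 they were 0.02, 0.08 and 0.18. The adipocyte sum had a median of 7358 CPM in KO and 8234 CPM in WT. With the adipocyte score in the model, the oxidative phosphorylation median was 0.03 and the fatty acid oxidation median 0.14. Adipoq (-0.03 ± 0.41) and the brown fat gene Ucp1 (0.59 ± 0.38) had wide errors. Of 11 brown adipocyte markers 9 were above 0, and 2 were higher at an unadjusted p under 0.05, against 4.13% of all genes. The median of that list was 0.40, and 0.17 to 0.85 with single libraries left out. Its sum was 923 to 2356 CPM in KO, highest in KO nicotine 4, and 411 to 2052 CPM in WT.

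All 14 skeletal muscle markers were above 0 (median 0.62), and their sum was 24.4 to 278 CPM in KO, highest in KO nicotine 3, and 24.3 to 75.3 CPM in WT. Without KO nicotine 3 that median was 0.0031. Of 17 endothelial markers 16 were above 0 (median 0.14), and 0 of them were at an unadjusted p under 0.05. Cytosolic ribosomal protein genes were the reverse, below 0 in 36 of 40, with a median of -0.05 and 0 at that mark. The members of a list are measured in the same 12 libraries and are not independent of each other.

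**Figure D5:**
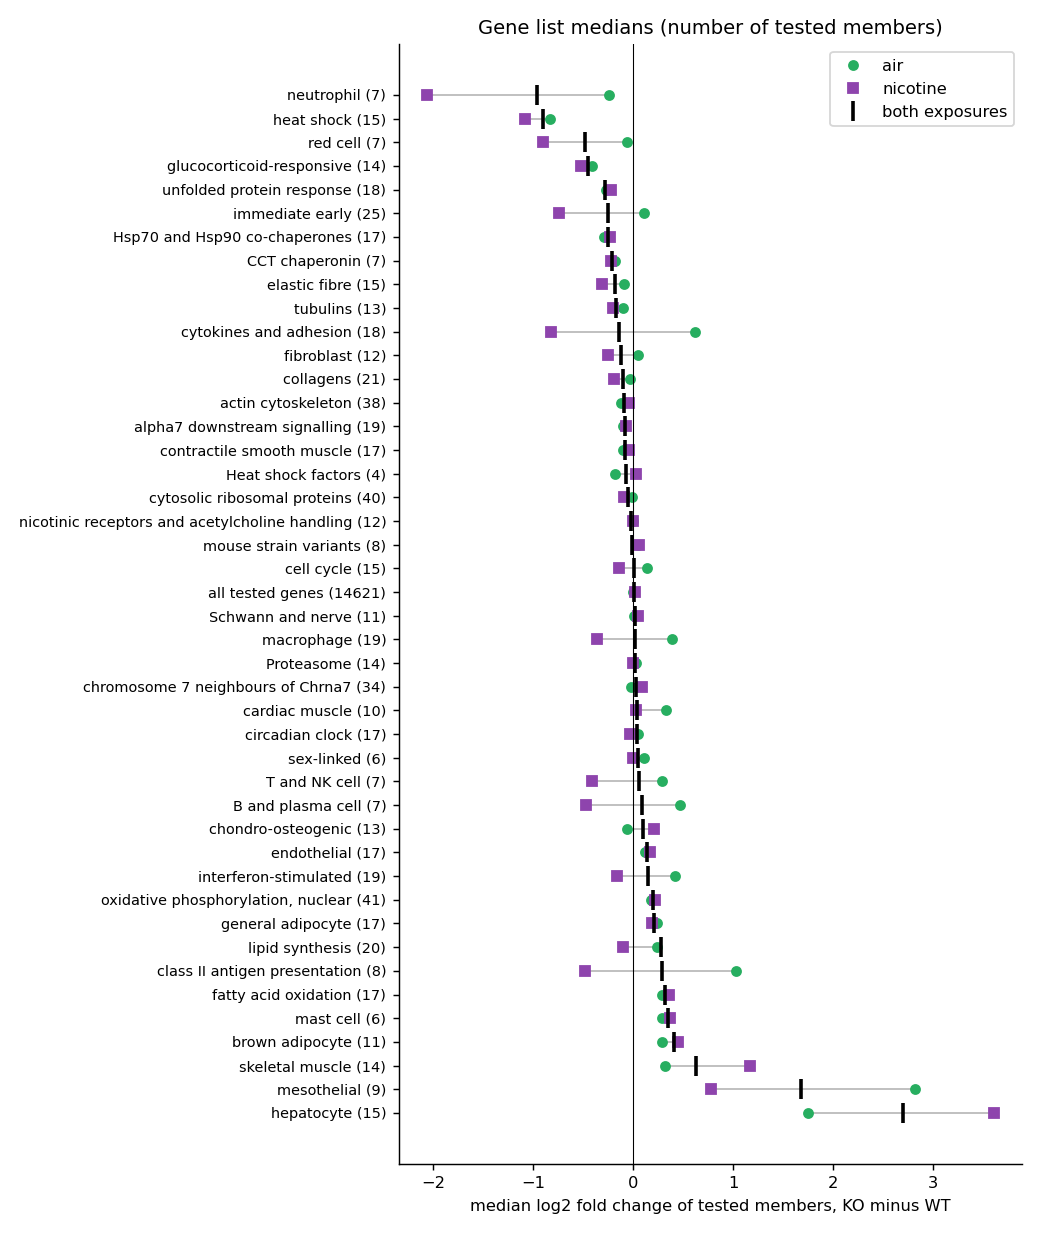
Median log2 fold change, KO minus WT, of the tested members of each gene list (number in brackets) in air (green circles), in nicotine (purple squares) and over both exposures (black bars). The heat shock list is at -0.83, -1.08 and -0.91, and the circles and squares of the neutrophil, immediate early, cytokine, macrophage and class II lists lie far apart.

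Not every list was shared between exposures. Macrophage markers had a median of 0.39 in air and -0.36 in nicotine, class II antigen presentation genes 1.03 and -0.49, cytokine and adhesion genes 0.61 and -0.82, and interferon-stimulated genes 0.42 and -0.17. In these lists 5 of 19, 5 of 8, 7 of 18 and 3 of 19 members had an unadjusted p under 0.05 for the difference between exposures (4.43% of all genes), none of them adjusted. Their medians over both exposures, 0.01, 0.29, -0.14 and 0.14, are therefore averages of opposite values. Neutrophil markers had a median of -0.96, and their sum was 15.2, 16.4 and 18.7 CPM in KO air and 18.5, 13.3 and 14.5 CPM in KO nicotine, against 11.1, 36.8 and 11.2 CPM in WT air and 90.2, 22.4 and 34.5 CPM in WT nicotine. WT nicotine 6 stood out there, and without it that median was -0.59.

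Single genes were also named by the smallest p within an exposure or for the difference between exposures. That choice favours a gap between the exposures, so these genes carry no test of one. In air edgeR called 0 genes (0%, 637 at an unadjusted p under 0.05, 4.36%), and the smallest p belonged to Ttc25 (2.21 ± 0.38 in air, -0.26 ± 0.37 in nicotine), Adprhl1 (3.38 ± 0.64 and -0.47 ± 0.62) and the interferon-induced GTPase gene Gbp4 (1.58 ± 0.32 and 0.25 ± 0.32). All 3 were higher in KO in air and had smaller differences under nicotine. For the difference between exposures edgeR called 0 genes (0%, 647 at an unadjusted p under 0.05). Sfrp4, a secreted Wnt antagonist, was at 87.6, 54.5 and 78.2 CPM in KO nicotine, against 206, 152 and 259 CPM in WT nicotine, and at 93.4, 91.4 and 99.6 CPM in KO air, against 77.1, 110.5 and 73.5 CPM in WT air. Its genotype effect of -0.68 ± 0.15 thus joined 0.12 ± 0.22 in air and -1.48 ± 0.22 in nicotine.

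The receptor's own gene family and surroundings showed no shared difference. Of the nicotinic subunits with enough counts, Chrna1 (-0.53 ± 0.40), Chrna2 (0.90 ± 0.55), Chrnb1 (0.20 ± 0.17) and Chrnb2 (-0.45 ± 0.33) had wide errors and none of them an unadjusted p under 0.05. Chrnb1, the muscle-type beta subunit and the most abundant of the 5, was at 10.5 to 13.1 CPM in KO and 7.28 to 15.7 CPM in WT. Of the 50 named genes nearest to Chrna7 on chromosome 7, 34 were tested, 0 had an unadjusted p under 0.05 and their median was 0.03. Nnt, which differs between C57BL/6 substrains, was expressed in all libraries, at 19.7 to 28.1 CPM in KO and 25.2 to 32.5 CPM in WT (-0.16 ± 0.10). Of 8 tested genes in a list of mouse strain variants, 1 was lower and 1 higher at an unadjusted p under 0.05, against 4.27% and 4.13% of all genes. That list summed to 186 to 213 CPM in KO. In WT it was at 178 CPM in nicotine 11 and 228 to 260 CPM in the other libraries. Whether strain background differs between the genotypes was not tested. Among genes downstream of the receptor, Stat3 (-0.35 ± 0.11), Rela (-0.24) and Creb1 (-0.16) were lower at an unadjusted p under 0.05, 3 of 19 against 4.27% of all genes, with a list median of -0.09.

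The group of 89 has a threshold, and chaperones lay on both sides of it. Just inside it lay Pcyox1, with unadjusted p of 0.0174 in air and 0.0487 in nicotine, and Filip1l, with 0.0476 and 5.45e-05. Just outside lay Hspb1, with 0.0135 in air and 0.05005 in nicotine, Hspb8, with 0.0513 and 0.00237, and the Hsp90 co-chaperone gene Ptges3, with 0.05004 and 0.0361. At an unadjusted p under 0.01 in each exposure 8 genes were left, all lower in KO.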

How the data were processed

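RNA of 12 samples of mouse thoracic aorta was made into SMART-Seq v4 libraries and sequenced, per the labels' protocols. The authors deposited raw counts per gene symbol, counted with HTSeq on build mm9 per the submitters' processing notes, and which aligner and gene annotation they used is not given in these sources. The 2 deposited tables of nicotine against air were not used. Of 27933 genes, 14621 passed edgeR's filterByExpr. A robust quasi-likelihood model of 4 group means was fitted in edgeR 4.0.16 to counts scaled by TMM (factors 0.962 to 1.05), with 8 residual degrees of freedom, a biological coefficient of variation of 0.233 and Benjamini-Hochberg adjustment over all tested genes. The genotype effect averages the KO minus WT differences of both exposures, and the interaction is the nicotine minus the air difference. CPM are TMM-scaled. Pairs of libraries in a group differed by 8.80 to 75.0 in chi-square per degree of freedom, so none was taken as a repeat of another.

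Genes were named by a rule. As none passed for genotype, those named are the 5 of each direction with the same sign in both exposures and the smallest unadjusted p, the 3 smallest per exposure and for the interaction where none passed, the calls where some did, and the receptor and marker genes given. Other genes were named after their values were seen. The members, the 39 lists and 4 added lists were chosen with earlier results of these data known. Lists are described by counts and medians. Promoters came from RefSeq (GRCm38.p6). Alternatives were DESeq2 1.42.0, limma 3.58.1 voom, other size factors and filters, covariates, a surrogate variable (sva 3.50.0) and leaving out libraries. The procedure was tested on simulated data. R 4.3.3, Python 3.11.15, pandas 2.3.3 and matplotlib 3.10.9 were used.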

Additional observations from a re-analysis of the deposited data

Results flagged for a closer look

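Bhlhe40, a transcriptional repressor of the circadian clock, and Ccnb2, a cyclin of cell division, went opposite ways by genotype in the 2 exposures. In air every KO library was above every WT library, and in nicotine every KO library was below every WT library. Both genes were named by their small p for the difference between exposures, a choice that favours opposite directions. How many of all tested genes show this pattern was not counted, so it is given as a description. Bhlhe40 was at 119.7, 124 and 124 CPM in KO air, against 69.6, 86.6 and 79.8 CPM in WT air, and at 114, 84.6 and 75.8 CPM in KO nicotine, against 162, 154 and 133 CPM in WT nicotine. Its difference between exposures was -1.35 on the log2 scale (edgeR adjusted p = 0.230, not past the threshold), and its genotype effect of -0.04 ± 0.10 is an average of opposite values. Ccnb2, a scarce transcript, was at 1.53, 1.71 and 2.56 CPM in KO air, against 0.348, 0.741 and 0.403 CPM in WT air. Under nicotine it was at 0.275, 0.381 and 0.162 CPM in KO, against 1.28, 1.26 and 0.735 CPM in WT. The Ccnb2 difference between exposures was -3.90 (edgeR adjusted p = 0.777, also not past it).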

How the results depend on the processing

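No paired analysis was possible because the groups share no library number. Heat shock genes lower in KO at an unadjusted p under 0.05 numbered 13 to 15 of 15 under every alternative fit to both exposures. All 15 were below 0 in each of these. The fits of the air or the nicotine libraries alone have no effect over both exposures and gave no such count. The genotype effect gave 115 genes with DESeq2, 12 without the filter on low counts, 7 with the skeletal muscle score and 6 with the adipocyte score as a covariate, 1 (Tsc22d3) with 1 surrogate variable and 1 with the hepatocyte score, and 0 to 1 with single libraries left out (Tnfaip6 without WT air 10, Rcan1 without WT nicotine 6). Genes moving the same way numbered 152 with the surrogate variable, 153 with the hepatocyte score, 8 at an unadjusted p under 0.01 in each exposure and 50 to 122 with single libraries left out. In air there were 13 calls with DESeq2 and 2 with the 6 air libraries alone. In nicotine there were 87 with DESeq2, 6 with DESeq2-type size factors, 7 without the filter, 9 with the adipocyte score, 0 with the immediate early or hepatocyte score, the surrogate variable or both KO air 7 and KO nicotine 3 left out, and 0 to 4 with single libraries left out. The interaction gave 9 with DESeq2, 1 without the filter and 0 to 1 with single libraries left out. Genes chosen in air and read in nicotine numbered 20 with DESeq2, 5 with the stricter filter, 4 with the immediate early score, 23 with the surrogate variable, 22 with the hepatocyte score, 6 without both libraries, 30 when chosen at 0.01 and 1 to 13 with single libraries left out. Those chosen in nicotine and read in air numbered 27 with DESeq2, 13 without the filter, 14 with the skeletal muscle score, 4 with the immediate early score, 4 without both libraries, 32 at 0.01 and 2 to 17 with single libraries left out. The hepatocyte score and leaving out both libraries were chosen after seeing the data. Some signs turned. Ccnb2 was at 0.0189 with voom, 0.0226 with the adipocyte score, 0.18 in the additive design, 0.0528 with the surrogate variable and 0.0893 with the hepatocyte score. Chrna1 (0.0699), Acta2 (0.14) and Myh11 (0.13) turned with the surrogate variable, Acta2 (0.10) and Myh11 (0.0904) with the hepatocyte score, and Adipoq with voom (0.0093) and without both libraries (0.0722). With single libraries left out the ranges were -0.17 to 0.18 for Ccnb2, -0.13 to 0.0192 for Bhlhe40, -0.32 to 0.0181 for Chrna7 and -0.29 to 0.37 for Adipoq. Among list medians, skeletal muscle was at -0.57 with the surrogate variable and -0.58 with the hepatocyte score, hepatocyte at 0.0666 and 0.0642 with these, and macrophage at -0.24 without both libraries. The cause was not tested for any of these. Genes under a few CPM, such as Rspo4, Apoc3 and Krt8, are limited by depth.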

Other observations

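Among other lists, chondro-osteogenic genes had a median of 0.10 with 9 of 13 above 0, where 52% of all genes were. Of the 13, Spp1 alone was higher in KO at an unadjusted p under 0.05, against 4.13% of all genes. Spp1 encodes osteopontin, a secreted phosphoprotein of bone and of activated macrophages. It was at 1.19, 2.22 and 10.9 CPM in KO air and 5.77, 0.572 and 1.62 CPM in KO nicotine, against 0.87, 0.494 and 1.05 CPM in WT air and 0.984, 0.335 and 0.735 CPM in WT nicotine (2.25 ± 0.66, edgeR adjusted p = 0.416). Lyve1, a hyaluronan receptor of lymphatic vessels and of macrophages along arteries, was the 1 macrophage marker of 19 that was lower at that mark. That count is near the 4.27% of all genes. Lyve1 was at 15.5 to 41.4 CPM in KO and 23.9 to 53.8 CPM in WT (-0.60 ± 0.17). Srebf1, the transcription factor of lipid synthesis, was at 129 to 187 CPM in KO and 95.8 to 152 CPM in WT (0.38 ± 0.11), in a list with a median of 0.28 over both exposures, 0.23 in air and -0.10 in nicotine, and of -0.06 over both without KO nicotine 4. Circadian clock genes (median 0.04), cell cycle genes (0.0032) and Schwann and nerve markers (0.01) stood near the 0.01 of all genes. These genes were named after their values were seen.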
